A study of Homo sapiens with 6 samples.

Results

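Cyclins E and A, the kinase they activate and its nearest regulators were followed in TPC-1 cells with and without overexpression of *RRM2*. The 8 genes were *CCNE1*, *CCNE2*, *CCNA1*, *CCNA2*, *CDK2*, *SKP2*, *CKS1B* and *FBXW7*, taken by symbol from the 58735 genes of the deposited expression table, and all 8 were found. TPC-1 is an established human papillary thyroid carcinoma cell line. The 3 control libraries came from the wild strain, and no empty vector is named for them. The 3 *RRM2*-OE-TPC-1 libraries came from the same line after infection with a lentivirus in which the CMV promoter of vector LV18 drives full-length *RRM2*, the small subunit of ribonucleotide reductase, followed by puromycin selection, so that lentivirus, selection and *RRM2* cannot be told apart here. The methods describe selected cultures and name no single clone. For 2 of the overexpression libraries, replicates 2 and 3, the genotype label says RRM3 or RRM4 where the title says *RRM2*, and the titles were followed. The design text calls each set a biological triplicate without saying how the cultures were separated, so p-values measure the spread between these libraries.

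Cyclin E pairs with CDK2 late in G1 and drives entry into S phase, and cyclin A takes over the same kinase during S phase and later pairs with CDK1. SKP2 is the F-box protein of an SCF ubiquitin ligase that, with the small adaptor CKS1, marks the inhibitor p27 for degradation, whereas FBXW7 is the F-box protein that recognises phosphorylated cyclin E. Cyclin A2 is the form used by dividing somatic cells, and cyclin A1 is known mainly from the male germ line and from leukemia.

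mRNA levels are given as FPKM, fragments per kilobase of gene length, scaled by a factor for each library. That length counts every annotated exon base, so a comparison of levels between different genes depends on the annotation as well. Each library held between 14317091 and 17084067 reads on genes, and mitochondrial genes took 4.29% to 5.89% of them. *RRM2* itself had 8.92 ± 0.346 FPKM in the wild strain and 48.4 ± 1.78 in the overexpression strain (SD, n = 3 libraries per group throughout; log2 fold change 2.43, adjusted p = 1.11e-08 from limma). Of 10 thyroid follicular markers, 7 (among them *NKX2-1*, *TG*, *TSHR* and *SLC5A5*) stayed under 0.5 FPKM in every library, and the sum of the 10 was 74.2 to 78.1 FPKM in TPC-1 and 64.3 to 67.8 in *RRM2*-OE-TPC-1, most of it *PAX8*. All 7 leukocyte markers were under 0.5 FPKM in every library (sums 0.349 to 0.410 and 0.135 to 0.215 FPKM), as were 3 of 4 endothelial markers (0.873 to 1.05 and 0.0667 to 0.115) and 4 of 6 fibroblast markers (2.78 to 3.16 and 2.78 to 2.95). The 7 epithelial markers summed to 60.8 to 65.5 FPKM in TPC-1 and 101.6 to 103.9 in *RRM2*-OE-TPC-1, with *EPCAM*, *CDH1* and *KRT19* under 0.5. The mean of *KRT18* (41.2 and 85.2 FPKM) rose by more than the mean of that sum, and *KRT8* rose little (2.56 and 3.48). In contrast, *CLDN1* (18.6 and 13.2) and *KRT7* (1.18 and 1.01) had lower means in *RRM2*-OE-TPC-1. The part of these shifts in the results that follow was not tested.

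All 8 genes differed between the strains at an adjusted p of 0.05 or less (limma on log2(FPKM + 0.1), adjusted over 13621 genes). In 7 the overexpression strain had the higher level, as for 34.9% of all tested genes, and *CCNA1* was lower, as for 32.7%. Of all genes, 67.6% passed that threshold, so passing it does not set the 8 apart. When a change of at least 2-fold either way (log2 fold change of 1 or beyond) was also asked for, which defines a called gene below, 5 of the 8 were called, against 11.5% of all genes. The 4 called higher were *CCNE1*, *CCNE2*, *CCNA2* and *SKP2* (4.48% of all genes), and the 1 called lower was *CCNA1* (6.97% of all genes). In none of the 8 did the values of the groups overlap, which was true of 72.2% of all genes. The 8 genes and the lists below were chosen with earlier results of these data known, so a share called beside that of all genes is a description only. The 5 called genes also stand in the list of cell cycle genes that the study drew from its own comparison of these libraries, so that list is not independent evidence of their direction. In bulk RNA, more cells in a phase of the cycle and more mRNA per cell cannot be told apart.

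**Figure D1:**
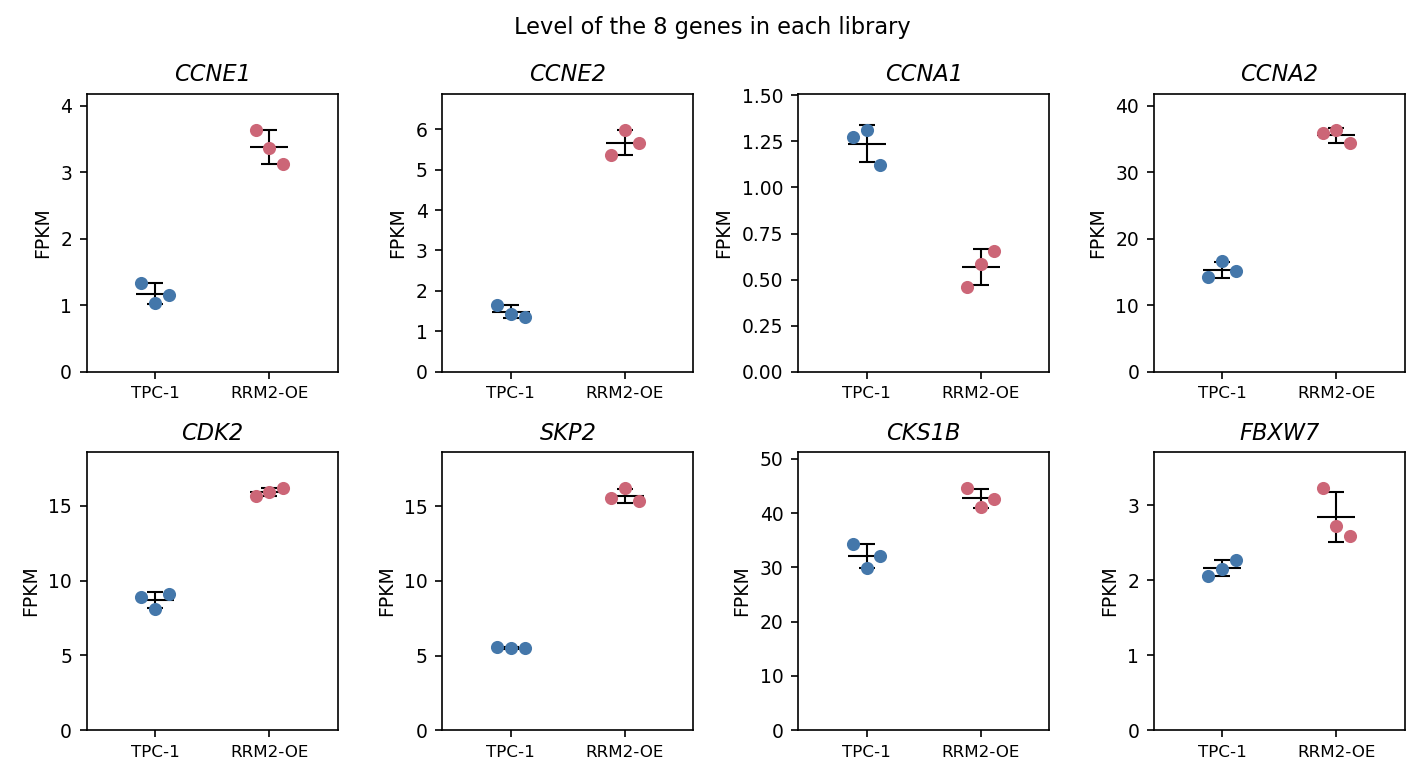
Level of each of the 8 genes in FPKM on a linear axis from 0, with 1 point per library (blue for TPC-1, red for *RRM2*-OE-TPC-1), a horizontal line at the mean and a bar of 1 SD either side. The points of the groups are apart in all 8 panels, with *CCNA1* alone lower in the overexpression strain, and the gap is narrowest against the spread for *FBXW7*.

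The cyclin E genes rose together. *CCNE1* (ENSG00000105173, chr19:29811898-29824308 on the plus strand of GRCh38) encodes cyclin E1. Its level was 1.34, 1.03 and 1.16 FPKM in TPC-1 replicates 1 to 3, from 57, 44 and 47 reads, and 3.64, 3.37 and 3.13 FPKM in *RRM2*-OE-TPC-1, from 134, 147 and 127 reads. The lowest overexpression library was thus more than 2 times the highest wild strain library. The means were 1.17 ± 0.157 and 3.38 ± 0.255 FPKM, a log2 fold change of 1.45 (SE 0.116, 95% interval 1.18 to 1.72, adjusted p = 1.32e-05 from limma). Of all tested genes, 98.3% had a lower log2 fold change.

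To show what lies before the start sites of genes that rose together, promoter sequence was read from RefSeq (GRCh38.p14), which held windows for 6 of the 8 genes and none for *CDK2* and *CCNE2* in the table used. Each window runs from 250 bases before the RefSeq start site to 50 after it. The printed stretch begins at the window's first base and ends at most 30 bases inside the gene model, whose position is given with each gene. For *CCNE1*, *CCNA2* and *SKP2* that model begins upstream of the RefSeq start site, so the printed stretch stops short of the site. The first, chr19:29811741-29811927 on the plus strand, is 84.0% G or C.
CCNE1: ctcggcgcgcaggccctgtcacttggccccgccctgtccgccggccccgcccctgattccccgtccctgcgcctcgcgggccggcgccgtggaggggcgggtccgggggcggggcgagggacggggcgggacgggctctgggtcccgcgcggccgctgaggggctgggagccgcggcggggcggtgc
Capitals in the sequences shown here would mark CCAAT, the similar letters TTTGAA and also CTTGAA, or the palindrome TGACGTCA, on either strand, and the *CCNE1* stretch holds none of them. The E2F-like letters TTTCGCGC, TTTGGCGC, TTTCCCGC and TTTGCCGC were in 0 of the 9 windows of the 6 genes (4 of these belong to *FBXW7*), and at least 1 of them was in 3.32% of 35116 windows of all genes. Shorter letters, tried after this was seen, were also in 0 of the 9, against 6.55% of all windows for TTCCCGC, against 2.24% for TTCGCGC and against 3.04% for TTGGCGC. These are matches of letters in a short window and no measurement of binding. Because so few windows of all genes match, 0 of 9 does not set these genes apart. Exact letters also leave out variant sites.

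*CCNE2* (ENSG00000175305, chr8:94879770-94896678, minus strand), the gene of cyclin E2, showed the widest rise of the 8. Wild strain libraries had 1.66, 1.42 and 1.36 FPKM (122, 105 and 95 reads), and overexpression libraries had 5.37, 5.99 and 5.65 FPKM (341, 451 and 396 reads). Every overexpression library lay more than 3 times above every wild strain library. The group means of 1.48 ± 0.162 and 5.67 ± 0.311 FPKM stood 3.83-fold apart, with a log2 fold change of 1.87 (SE 0.0941, 95% interval 1.65 to 2.09, adjusted p = 1.20e-06 from limma). Of the tested genes, 0.793% had a higher log2 fold change. Exons of *INTS8*, a subunit of the Integrator complex, cover 1629 of the 4397 exon bases of *CCNE2* (37.0%) from the opposite strand. *INTS8* had 14.3 ± 0.233 FPKM in TPC-1 and rose to 17.5 ± 0.585 (log2 fold change 0.30, adjusted p = 2.59e-04 from limma). *AC087752.4*, an antisense gene that shares 4 bases with *CCNE2*, had 1.36 ± 0.178 and 1.45 ± 0.224 FPKM, which did not pass the test (adjusted p = 0.646). The kit marks strand but the sources do not say that counting used it, so reads in the shared bases may belong to either gene and the level of *CCNE2* is uncertain.

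Summed, cyclin E mRNA stood at 2.65 ± 0.304 FPKM in the wild strain and at 9.04 ± 0.289 in the overexpression strain. *CCNE2* supplied 54.0% to 58.1% of that sum in the wild strain and 59.6% to 64.4% in the overexpression strain. The ratio of *CCNE2* to *CCNE1* was 1.24, 1.38 and 1.17 in TPC-1 and 1.48, 1.78 and 1.81 in *RRM2*-OE-TPC-1, so every overexpression library had a higher share of *CCNE2* than any wild strain library.

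The cyclin A genes went in opposite directions. *CCNA1* (ENSG00000133101, chr13:36431520-36442882, plus strand) encodes cyclin A1 and was low in every library, with 1.27, 1.31 and 1.12 FPKM in TPC-1 and 0.461, 0.584 and 0.654 FPKM in *RRM2*-OE-TPC-1. These levels rested on 51, 53 and 43 reads and on 16, 24 and 25 reads, as few as those of *CCNE1* in the wild strain and the fewest of the 8 genes in the overexpression strain. The highest overexpression value was 0.654 against a lowest wild strain value of 1.12. *CCNA1* fell from a mean of 1.24 ± 0.0996 to 0.566 ± 0.0975 FPKM, or 0.458 of its wild strain level (log2 fold change -1.01, SE 0.157, 95% interval -1.38 to -0.65, adjusted p = 5.90e-04 from limma). The interval reaches well inside a 2-fold change. The estimate came short of the threshold for a call with TPC-1 replicate 1 left out (-0.99), or TPC-1 replicate 2 (-0.97), or the first *RRM2*-OE-TPC-1 library (-0.89), and with a pseudocount of 1 (-0.52), while its adjusted p stayed under 0.05 in all 15 alternatives tried. No exon of another gene overlaps *CCNA1*.

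*CCNA2* (ENSG00000145386, chr4:121816444-121823933, minus strand), the gene of cyclin A2, had levels of 14.2, 16.6 and 15.1 FPKM (663, 780 and 674 reads) in the wild strain and of 35.9, 36.4 and 34.3 FPKM (1451, 1744 and 1531 reads) in the overexpression strain. Both groups were tight, with a coefficient of variation of 7.84% and 2.99%. Means of 15.3 ± 1.20 and 35.5 ± 1.06 FPKM gave a 2.32-fold rise and a log2 fold change of 1.21 (SE 0.0578, 95% interval 1.08 to 1.35, adjusted p = 9.32e-07 from limma). *EXOSC9*, a subunit of the RNA exosome read from the opposite strand, covers 254 of the 2798 exon bases of *CCNA2* (9.08%), and its own level rose from 6.45 ± 0.137 to 10.8 ± 0.488 FPKM (log2 fold change 0.73, adjusted p = 5.91e-06), so a part of the reads is uncertain here too.

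The *CCNA2* promoter is shown because it holds letters known from cell cycle promoters. The stretch chr4:121823904-121824133, read on the minus strand, is 57.8% G or C.
CCNA2: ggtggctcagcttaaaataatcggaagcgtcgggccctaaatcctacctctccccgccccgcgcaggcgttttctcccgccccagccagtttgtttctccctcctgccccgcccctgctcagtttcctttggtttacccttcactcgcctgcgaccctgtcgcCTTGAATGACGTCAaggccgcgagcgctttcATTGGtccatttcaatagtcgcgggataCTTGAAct
Counted from the RefSeq start site, CTTGAA begins at -87 and at -28, TGACGTCA begins at -81 directly after the upstream one, with no shared letter, and CCAAT lies on the opposite strand at -56. CTTGAA was in 3 of the 9 windows of the 6 genes and in 11.2% of all windows, and TGACGTCA in 1 of 9 and in 1.85%. Both were searched after the windows had been read.

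Cyclin A mRNA, summed over both genes, averaged 16.5 ± 1.24 FPKM in the wild strain and 36.1 ± 1.01 in the overexpression strain. *CCNA2* made up 91.8% to 93.1% of the sum in TPC-1 and 98.1% to 98.7% in *RRM2*-OE-TPC-1, so the fall of *CCNA1* touched a small part of it. The ratio of *CCNA2* to *CCNA1* was 11.2, 12.6 and 13.4 in the wild strain and 77.8, 62.3 and 52.5 in the overexpression strain, 5.12 times higher as a ratio of geometric means. Of the 7 ratios compared it moved furthest, and it was also the most variable in *RRM2*-OE-TPC-1 (64.2 ± 12.7), where *CCNA1* had few reads.

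*CDK2* (ENSG00000123374, chr12:55966769-55972784, plus strand), the kinase that both cyclins activate, rose with a smaller estimate than *CCNE1*, *CCNE2* and *CCNA2*, and was not called. It had 8.93, 8.08 and 9.07 FPKM in TPC-1 (580, 529 and 563 reads) and 15.7, 15.95 and 16.2 FPKM in *RRM2*-OE-TPC-1 (882, 1064 and 1003 reads). The overexpression libraries lay within 1 FPKM of each other and far above the wild strain. Between means of 8.69 ± 0.537 and 15.9 ± 0.249 FPKM the log2 fold change was 0.87 (SE 0.0523, 95% interval 0.75 to 0.99, adjusted p = 2.90e-06 from limma), so the interval ended just short of a 2-fold rise. Exons of the antisense gene *AC025162.1*, which share 565 bases with *CDK2*, were listed at 0 in every library, and those of *PMEL* (89 bases) averaged 0.226 FPKM. As the strand setting is not stated, how reads in these shared bases were counted is uncertain, and so is the level of *CDK2*.

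Against their kinase, the cyclins stood higher in the overexpression libraries. The cyclin E sum over *CDK2* was 0.336, 0.303 and 0.277 in TPC-1 and 0.574, 0.586 and 0.543 in *RRM2*-OE-TPC-1. For *CCNA2* over *CDK2* the values were 1.59, 2.05 and 1.67 in TPC-1 and 2.29, 2.28 and 2.12 in *RRM2*-OE-TPC-1, with TPC-1 replicate 2 close to the lowest overexpression library. In contrast, *CCNA2* over the cyclin E sum was 4.73, 6.78 and 6.02 in the wild strain against 3.99, 3.89 and 3.91 in the overexpression strain. The last 3 values lay within 0.1 of each other (3.93 ± 0.0501), whereas the wild strain values spread over 2 units (5.84 ± 1.03).

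*SKP2* (ENSG00000145604, chr5:36151989-36184319, plus strand) encodes the F-box protein that receives p27. It had the smallest spread of the 8 genes in TPC-1, with 5.59, 5.49 and 5.48 FPKM (358, 354 and 335 reads), and rose to 15.5, 16.2 and 15.3 FPKM (862, 1065 and 937 reads) in *RRM2*-OE-TPC-1. The distance between the groups was more than 10 times the range within either. Its means were 5.52 ± 0.0628 and 15.7 ± 0.456 FPKM (2.84-fold), and its log2 fold change of 1.49 had the smallest standard error of the 8 (0.0431, 95% interval 1.39 to 1.59, adjusted p = 9.25e-08 from limma). The printed stretch of its window, chr5:36151861-36152018 on the plus strand, is 69.0% G or C and shows none of the letters searched.
SKP2: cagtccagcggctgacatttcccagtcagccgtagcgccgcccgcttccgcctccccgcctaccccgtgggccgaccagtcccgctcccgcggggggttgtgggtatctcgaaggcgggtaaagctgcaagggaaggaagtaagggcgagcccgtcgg

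*CKS1B* (ENSG00000173207, chr1:154974653-154979249, plus strand), the gene of the CKS1 adaptor, was the most abundant of the 8 in both strains and rose little. Its level was 34.4, 29.8 and 32.02 FPKM in TPC-1 (1341, 1173 and 1193 reads) and 44.6, 41.1 and 42.6 FPKM in *RRM2*-OE-TPC-1 (1507, 1646 and 1586 reads). The nearest libraries of the groups were 6.73 FPKM apart, against a range of 4.54 FPKM within the wild strain. Its mean rose 1.33-fold, from 32.1 ± 2.27 to 42.8 ± 1.76 FPKM (log2 fold change 0.42, SE 0.0560, 95% interval 0.29 to 0.54, adjusted p = 2.69e-04 from limma). Processed pseudogene copies of it could take part of its reads. *CKS1BP3* was listed at 7.08 to 12.6 FPKM with at most 51 reads, *CKS1BP2* had at most 7 reads and *CKS1BP7* at most 1, and *CKS1BP1*, *CKS1BP5* and *CKS1BP6* were at 0.

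The *CKS1B* promoter is shown because it holds the most matches of the windows printed. The stretch chr1:154974431-154974680 on the plus strand is 55.2% G or C.
CKS1B: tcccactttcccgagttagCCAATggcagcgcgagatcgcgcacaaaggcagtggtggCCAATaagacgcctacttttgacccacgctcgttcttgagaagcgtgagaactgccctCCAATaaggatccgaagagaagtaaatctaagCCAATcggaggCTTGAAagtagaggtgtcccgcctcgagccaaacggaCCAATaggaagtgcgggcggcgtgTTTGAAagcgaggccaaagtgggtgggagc
CCAAT stands 5 times on the plus strand, beginning at -231, -192, -134, -102 and -54, CTTGAA at -91 and TTTGAA at -30. CCAAT was in 3 of the 9 windows of the 6 genes and in 34.6% of all windows, and TTTGAA in 2 of 9 and in 15.2%.

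*FBXW7* (ENSG00000109670, chr4:152320544-152536063, minus strand), whose protein opposes cyclin E, had the smallest estimate of the 8, close to that of *CKS1B*. TPC-1 libraries had 2.05, 2.15 and 2.27 FPKM (380, 402 and 401 reads) and *RRM2*-OE-TPC-1 libraries 3.22, 2.71 and 2.59 FPKM (517, 516 and 457 reads). The overexpression libraries differed more among themselves, by 0.639 FPKM, than the nearest libraries of the groups did, by 0.317 FPKM. Its mean of 2.16 ± 0.108 rose to 2.84 ± 0.338 FPKM (log2 fold change 0.38, SE 0.101, 95% interval 0.14 to 0.61, adjusted p = 0.0109 from limma), and 24.4% of all genes had a higher log2 fold change. The antisense gene *FBXW7-AS1*, which shares 127 bases, was listed at 0.

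Ratios were also taken between the F-box genes and the adaptor. *SKP2* over *FBXW7* was 2.72, 2.55 and 2.42 in TPC-1 and 4.82, 5.97 and 5.93 in *RRM2*-OE-TPC-1. *SKP2* over its adaptor *CKS1B* was 0.163, 0.184 and 0.171 in TPC-1 and 0.349, 0.394 and 0.360 in *RRM2*-OE-TPC-1. For none of the 7 ratios did the groups overlap. Each gave p = 0.1 in an exact two-sided permutation test, also after adjustment over the 7, and 3 libraries against 3 cannot give less.

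**Figure D2:**
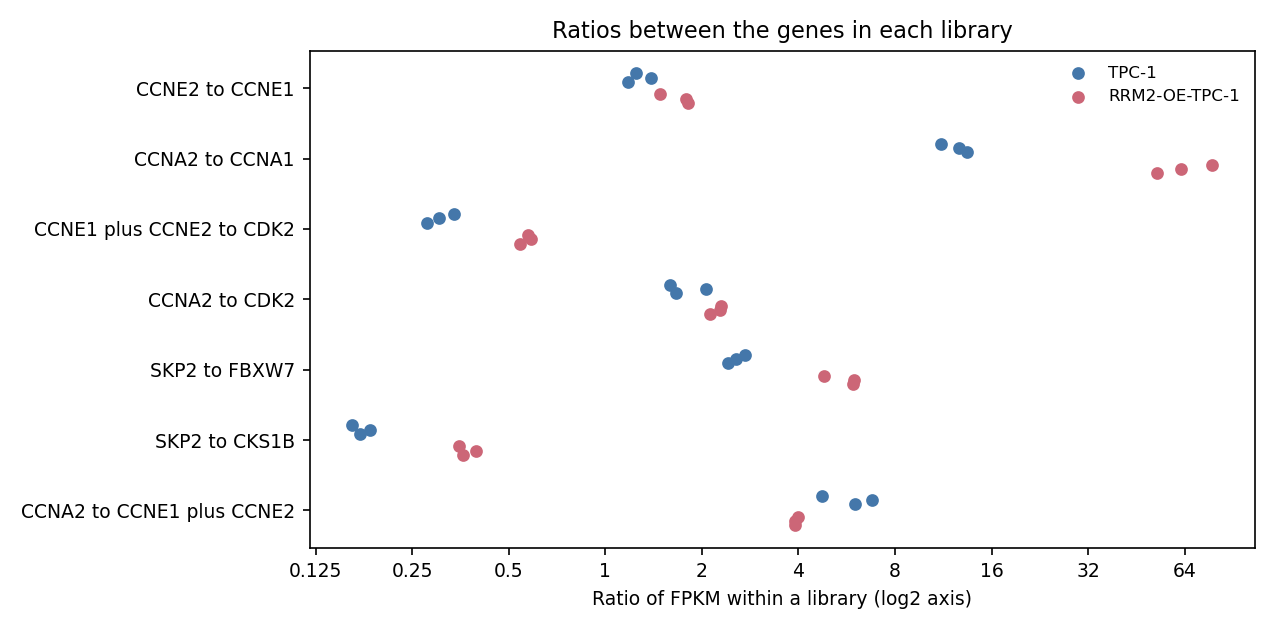
Ratio of FPKM between members within each library, on a log2 axis, with blue points for the 3 TPC-1 libraries and red points for the 3 *RRM2*-OE-TPC-1 libraries. *CCNA2* to *CCNA1* moved furthest, from 11.2 to 13.4 up to 52.5 to 77.8, and *CCNA2* to the cyclin E sum is the one ratio that was lower in *RRM2*-OE-TPC-1.

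By level, the order in TPC-1 was *CKS1B*, *CCNA2*, *CDK2*, *SKP2*, *FBXW7*, *CCNE2*, *CCNA1* and *CCNE1*, and of the neighbours only the last pair overlapped (1.12 to 1.31 and 1.03 to 1.34 FPKM). In *RRM2*-OE-TPC-1 the first 4 kept their places, with *SKP2* drawn level with *CDK2* (15.3 to 16.2 and 15.7 to 16.2 FPKM). *CCNE2* and *CCNE1* had passed *FBXW7*, although *CCNE1* (3.13 to 3.64 FPKM) and *FBXW7* (2.59 to 3.22 FPKM) overlapped, and *CCNA1* came last. Tested against a null of a 2-fold change rather than no change, *CCNE2* and *SKP2* passed (adjusted p = 4.84e-04 and 1.46e-04 from limma), while *CCNE1* (0.0510) and *CCNA2* (0.0674) came close to the threshold without passing.

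**Figure D3:**
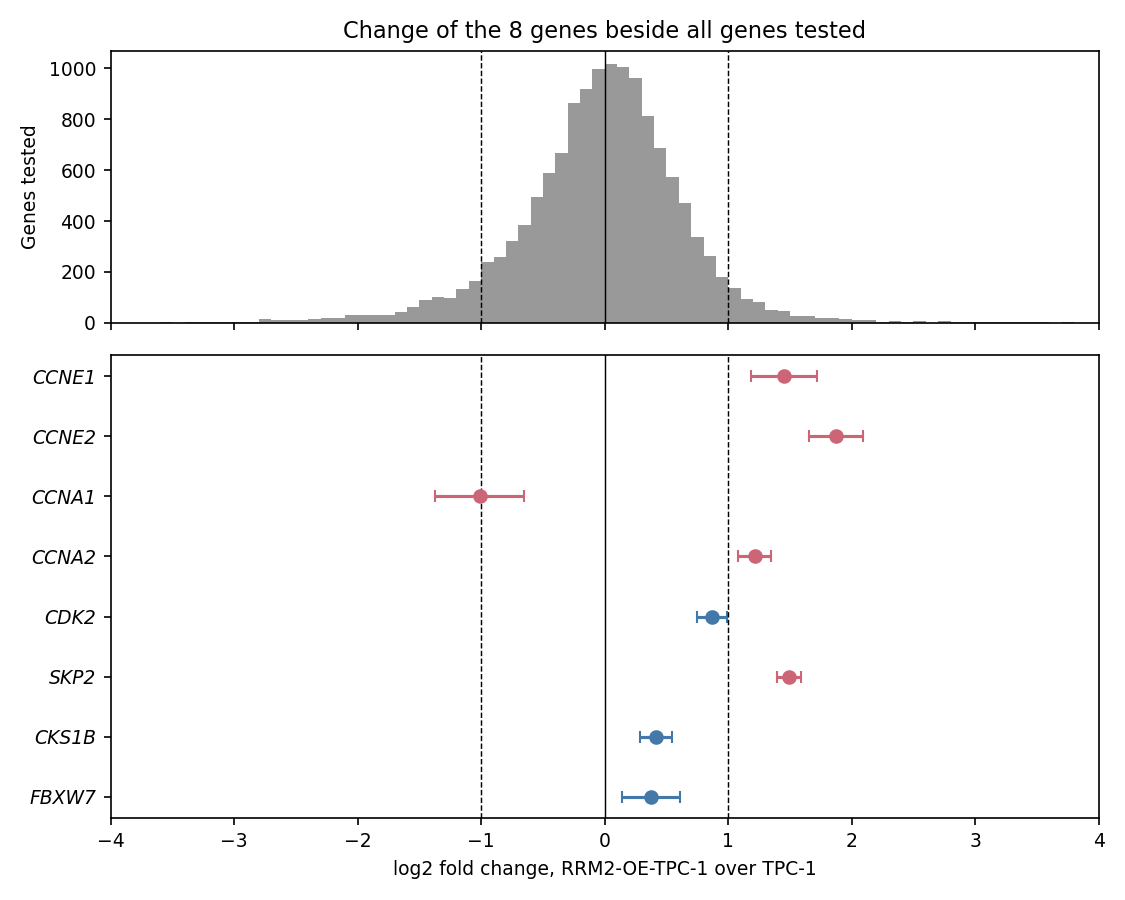
Upper panel, number of tested genes by log2 fold change of *RRM2*-OE-TPC-1 over TPC-1, with 18 genes beyond the axis limits of 4; lower panel, the estimate and 95% interval of each member, red where called and blue otherwise, with dashed lines at a 2-fold change. *CCNE1*, *CCNE2*, *CCNA2* and *SKP2* lie in the right tail, and the interval of *CCNA1* spans the left dashed line.

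Genes with the most similar profile were sought among 10548 protein-coding genes, by the root mean square difference of log2 values, relative to the TPC-1 mean, over the 6 libraries. The nearest to *CCNE1* were *ASTN2* (0.0530), *APOBEC3B* (0.0639) and *AEN* (0.0713). For *CCNE2* they were *ORC1* (0.0616), *GPRC5A* (0.0724) and *TUBA1B* (0.0812), and for *CCNA2* they were *BRIP1* (0.0372), *ELL2* (0.0453) and *FN3KRP* (0.0527). *SKP2* had the closest neighbours, *KPNA2* (0.0224), *PHLDA2* (0.0326) and *MCM4* (0.0363). *HBP1* (0.0533), *MAP3K15* (0.0752) and *MBD6* (0.0789) were nearest to *CCNA1*, with log2 fold changes of -0.993, -0.985 and -0.996. With 6 libraries in 2 groups, likeness of this kind is largely one of fold change.

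Genes that act on CDK2 moved in both directions, in shares near those of all genes. Of 17 activating and inhibitory regulators, 16 could be tested (*SPDYA* could not), of which 7 were higher, 5 were lower and 4 did not pass, with a median log2 fold change of 0.064 beside 0.011 over all genes. The share called was 12.5%, against 11.5% of all genes. Called were *CDKN1A*, the gene of the inhibitor p21, which rose from 41.2 ± 1.33 to 208 ± 4.45 FPKM (log2 fold change 2.33, adjusted p = 9.81e-09), and *CDC25A*, a phosphatase that removes inhibitory phosphates from CDK2, which rose from 3.31 ± 0.238 to 10.1 ± 0.204 FPKM (1.59, adjusted p = 4.07e-07). *CABLES1* lay lowest (-0.91). Chosen after their values were seen, *CDKN1B*, the gene of p27, fell by 0.73 on the log2 scale, from 29.8 to 17.95 FPKM, so that the mRNAs of the inhibitors p21 and p27 moved apart. Also looked up afterwards, the kinases that place the inhibitory phosphates, *WEE1* (0.80) and *PKMYT1* (0.98), rose, while *CDC25B* (-0.020, adjusted p = 0.647) and *CDC25C* (-0.0095, adjusted p = 0.916) did not pass.

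Genes of the SCF ligases and some regulators near them had mostly small changes. The list of 17 holds core subunits and activators, and also *CCNF*, *FBXO5*, *FZR1*, *CKS2* and *USP28*, which are not part of the shared ligase body. Of the 17, 13 were higher, 2 were lower and 2 did not pass, with a median of 0.21 and a lowest value of -0.36 for *USP28*, a deubiquitinase that counters FBXW7. *CCNF*, which is both a cyclin and an F-box protein, was the 1 called gene (5.88%, against 11.5% of all genes), from 4.73 ± 0.0938 to 10.1 ± 0.0694 FPKM (log2 fold change 1.08, adjusted p = 4.98e-07). Looked up after the values were known, the scaffold subunits *SKP1* (0.39), *CUL1* (0.18) and *RBX1* (0.38) rose with smaller estimates than *SKP2*, and *CKS2*, the paralog of *CKS1B*, was at 108 and 100.1 FPKM and did not pass (adjusted p = 0.342).

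Among transcription factors of the cyclin genes, 19 of 20 in the E2F, DREAM and MYB-MuvB list were tested (*LIN37* was not), and 14 were higher, 3 lower and 2 without a passing change. None was called at the 2-fold threshold, against 11.5% of all genes. The test was passed by 17 of 19, against 67.6% of all genes, and the median was 0.32. The range ran from *E2F5*, a repressor-type E2F, at -0.77 to *E2F1*, an activator, at 0.96, where the level went from 9.89 ± 0.908 to 19.2 ± 0.805 FPKM.

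Genes listed as encoding CDK2 substrates, most of them with a part in DNA replication, moved mostly upward. All 15 listed were tested, 14 were higher and 1 lower, the median was 0.97, and 8 (53.3%, against 11.5% of all genes) were called. *CDC6* and *RPA2* also stand in the G1/S list below, and *ORC1*, *CDT1* and *BRCA2* in that of SKP2 targets, so these lists are not separate observations. *ORC1*, an origin recognition subunit, rose from 2.57 ± 0.175 to 9.78 ± 1.14 FPKM (1.89), *MCM4* of the replicative helicase by 1.48, the flap nuclease *FEN1* by 1.43, the licensing factor *CDC6* by 1.38 and the helicase *RECQL4* by 1.18 on the log2 scale. *ID2*, an inhibitor of transcription factors, was the exception, and fell from 36 ± 2.39 to 14.2 ± 1.22 FPKM (-1.34). The largest adjusted p among these 6 was 1.62e-06 from limma.

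The mRNAs of proteins that the F-box proteins mark were mixed. Of 15 FBXW7 targets, 13 were tested (*MYCN* and *PPARGC1A* were not), with 8 higher, 3 lower and 2 that did not pass. Their median was 0.16, and 4 were called (30.8%, against 11.5% of all genes). The factors *KLF2* (1.601) and *KLF5* (1.14) and the receptor *NOTCH1* (1.11) rose, whereas *SREBF1*, the gene of the lipid regulator SREBP1, fell from 69.4 ± 1.64 to 15.4 ± 0.433 FPKM (-2.17, adjusted p = 9.81e-09). Of 15 SKP2 targets, 8 were higher, 5 lower and 2 did not pass, with a median of 0.35. Called were 3 (20%, against 11.5% of all genes), namely *CDKN1A* and *ORC1*, given above, and the repair gene *BRCA2* (1.11). Both shares rest on few genes. These are mRNA levels, and degradation of the proteins was not measured.

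The cyclins and their regulators are themselves expressed in phases, so genes of the phases are given beside them. Of 20 genes that peak in G1/S and S phase, 19 were tested and all 19 were higher, with a median of 1.00. Among them 10 were called (52.6%, against 11.5% of all genes). Leading were *CLSPN* (2.12), *GINS2* (1.71), *GMNN* (1.46), *CDC6* (1.38), *EXO1* (1.35) and *CHAF1B* (1.29), and the sum of the list was 130.8 to 133.1 FPKM in TPC-1 and 268.2 to 279.9 in *RRM2*-OE-TPC-1. Of 20 genes that peak in G2 and mitosis, 19 were higher, *NUSAP1* did not pass (0.0087) and 4 were called (20%, against 11.5% of all genes). Their median was 0.74, with sums of 403.2 to 435.0 and 744.5 to 752.8 FPKM. *ANLN* (1.79), *KIF20B* (1.13), *HMMR* (1.09) and *GTSE1* (1.04) were those called. *CCNE1*, *CCNE2* and *SKP2*, at 1.45 to 1.87, and *CCNA2*, at 1.21, lay above both medians. *CDK2*, at 0.87, lay between the medians, while *CKS1B* and *FBXW7* lay below both. Share of cells per phase was not measured in these libraries. By flow cytometry, the paper reported a lower share of G0/G1 cells and a higher share of S phase cells in *RRM2*-overexpressing TPC-1 cells. The part of phase shares in the results given here was not tested.

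**Figure D4:**
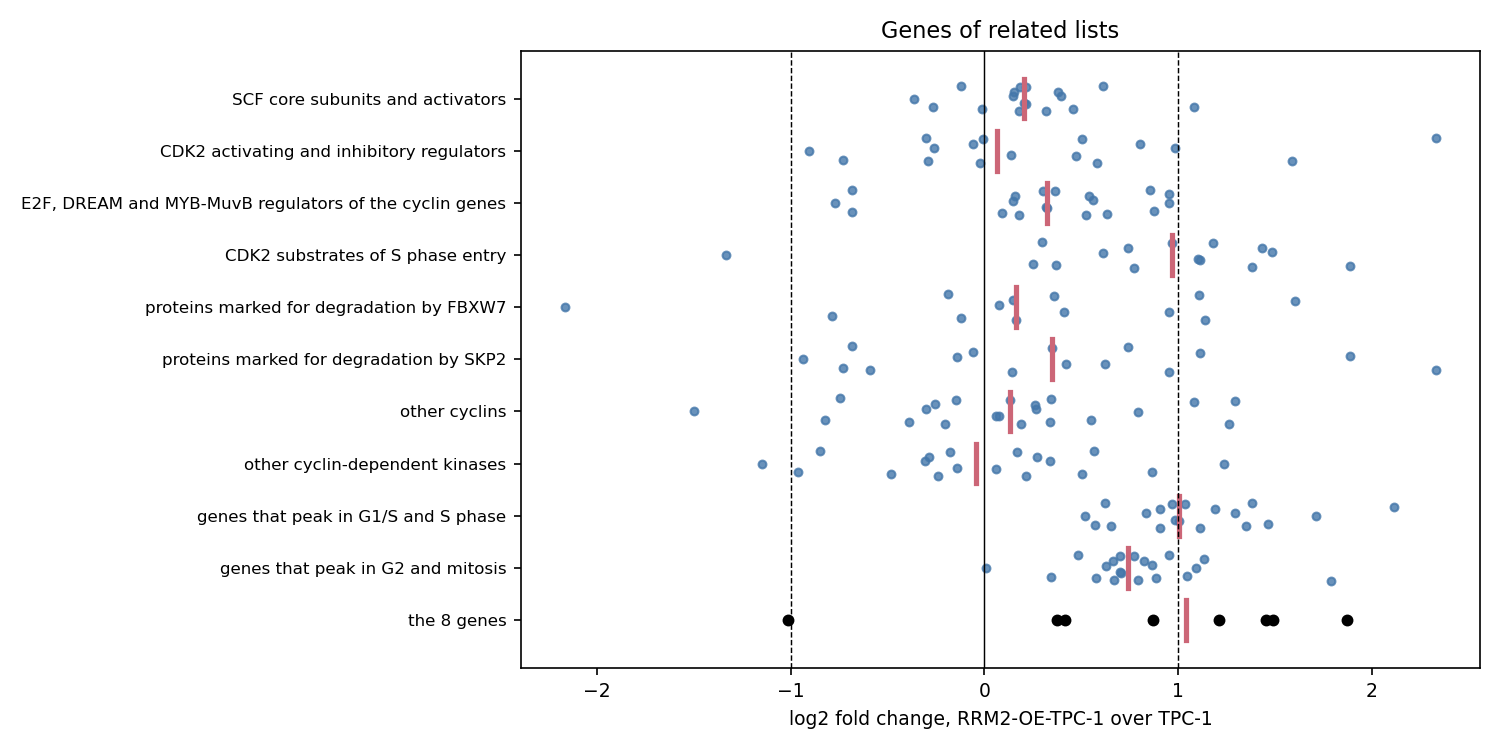
Log2 fold change of *RRM2*-OE-TPC-1 over TPC-1 for the tested genes of 10 related lists, 1 point per gene with a red bar at the list's median, and the 8 genes in black at the bottom; dashed lines mark a 2-fold change. The lists of G1/S and CDK2 substrate genes have medians of 1.00 and 0.97, the other cyclin-dependent kinases one of -0.042.

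Across 15 alternative settings the 8 genes kept their direction and an adjusted p of 0.05 or less. The log2 fold change ranged from 1.01 to 1.54 for *CCNE1*, 1.43 to 1.95 for *CCNE2*, 1.16 to 1.27 for *CCNA2*, 0.81 to 0.90 for *CDK2*, 1.36 to 1.51 for *SKP2*, 0.36 to 0.47 for *CKS1B* and 0.28 to 0.44 for *FBXW7*. The largest adjusted p of any gene was 0.0381, for *FBXW7* without TPC-1 replicate 1.

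**Figure D5:**
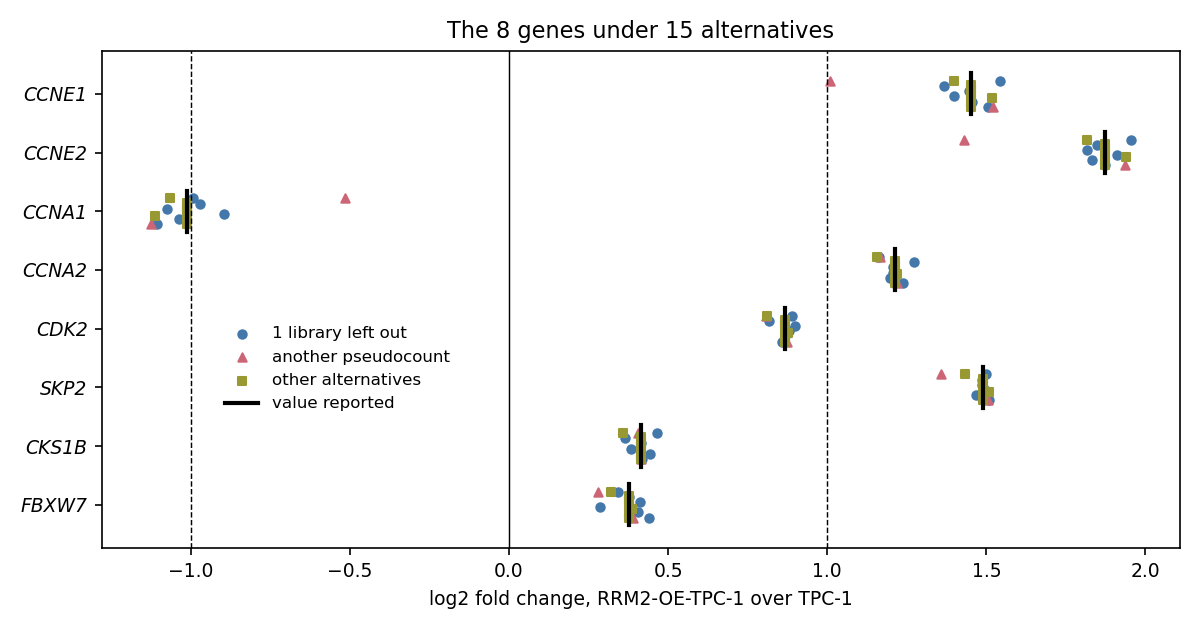
Log2 fold change of each member under 15 alternatives, with circles for 1 library left out, triangles for another pseudocount, squares for the rest and a black bar at the value reported; dashed lines mark a 2-fold change. The low genes *CCNE1*, *CCNE2* and *CCNA1* move most with a pseudocount of 1, and *CCNA1* crosses its dashed line in 4 of the 15.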

How the data were processed

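RNA from 3 TPC-1 and 3 *RRM2*-OE-TPC-1 libraries was sequenced with a directional kit. The methods describe poly(A) selection, and the labels ribosomal RNA removal and RNase R digestion. After trimming with fastp, the authors used HISAT2 2.0.5 for alignment and featureCounts 1.5.0 for counting, and deposited FPKM values. The deposited table also gives other columns, such as gene length and position. The submitters' processing notes name GRCh38.p14 and DESeq2 1.20.0. The annotation release and strand setting are not given in the sources used here. All 58735 identifiers and positions were those of GENCODE 29, and 12 symbols that read as dates were restored by identifier. FPKM times length gave whole reads, within 0.02 reads, for 100% of values, so the scaling of each library could be recovered. The depth it implied was 1.031 to 1.053 times the reads on genes in TPC-1. In *RRM2*-OE-TPC-1 it was 0.997 to 1.010 times. Over median-of-ratios factors it was level across libraries (0.999 to 1.001 of the mean), so the deposited values follow such factors more closely than read totals.

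The FPKM values were tested as log2(FPKM + 0.1) with limma 3.58.1 in R 4.3.3 (lmFit, eBayes with trend, Benjamini-Hochberg adjustment), because FPKM are not counts. Tested were 13621 genes with at least 0.5 FPKM and 10 reads in 3 libraries. On simulated data with 200 changed genes, all 181 that were tested and 2 unchanged genes of 13606 were called, and with no gene changed 0 were. How reliably changes near the 2-fold threshold are called was not tested in those data. Ratios, overlaps with GENCODE 29 exons, motif searches and figures used Python 3.11.15 with pandas 2.3.3, numpy 2.4.6, matplotlib 3.10.9 and scipy 1.17.1.

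The members, lists and markers were chosen with earlier results of these data known. Named were the 8 genes, *RRM2*, expressed genes with overlapping exons, *CKS1B* copies, up to 6 called genes per list with the largest changes, and the 3 nearest profiles of each called member. The lowest and highest genes of lists and a few others were named after their values were seen. Alternatives were library totals, median-of-ratios factors, 2 other filters, pseudocounts of 1 and 0.01, voom on recovered reads, a block for the replicate number, 1 library left out at a time, protein-coding genes only, adjusted p alone and a test of a log2 fold change above 1. Ratios were repeated with 1 read added, and E2F-like motifs singly. The shorter E2F-like letters, TGACGTCA and CTTGAA were added after seeing the data. Protein sequences were not used here, and most list genes are given only in counts, some of them not reported here by name. Libraries with an empty vector were not analysed here.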

Additional observations from a re-analysis of the deposited data

How the results depend on the processing

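Of 207 alternative values, 5 counts moved by more than 1.5 times and 4 values, all of *CCNA1*, came short of the 2-fold threshold. The other 198 did neither, among them counts that went from 5 called genes of the 8 to 4. Some of the 198 could not differ, since a single E2F-like motif cannot match more windows than all of them together. Median-of-ratios factors nearly repeated the scaling of the deposited values, and ratios were judged by direction alone. No direction turned. Genes called numbered 1560 as reported, 716 with a pseudocount of 1, which by construction shrinks low genes, 9207 with adjusted p alone and 618 in the test of a change above 1. Of the 8 genes, 8 passed by adjusted p alone and 2 (*CCNE2* and *SKP2*) in the test of a change above 1. *CCNA1* was at -0.52 with a pseudocount of 1 and between -1.11 and -0.89 with 1 library left out, under the threshold when TPC-1 replicate 1, TPC-1 replicate 2 or *RRM2*-OE-TPC-1 replicate 1 was absent. The cause was not tested. Leaving out 1 library gave 1649 to 1715 genes called and 4 to 5 of the 8. Scaling to library totals moved the median of all genes from 0.011 to -0.046.

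With the replicate number as a block (replicate block), 1566 genes and 5 of the 8 were called, and no call of the 8 changed. Deviations of same-numbered libraries from their group means correlated at -0.011, -0.0060 and -0.055, so no pairing by number was seen. With so few libraries a pairing is not excluded, and the sources do not say how the cultures were separated.

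Depth limits *CCNA1* most, with 16 to 53 reads per library. Without a stated strand setting, *CCNE2* and *CCNA2* remain uncertain where exons of *INTS8* and *EXOSC9* overlap them. The same holds for *CDK2* where it shares bases with *AC025162.1* and *PMEL*, and for *FBXW7* with *FBXW7-AS1*.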

Other observations

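Other cyclins were mixed. Of 26, 21 were tested (*CCNB3*, *CCND2*, *CCNI2*, *CCNP* and *CNTD1* were not), of which 9 were higher, 7 were lower and 5 did not pass, with a median log2 fold change of 0.13 and 4 called (19.0%, against 11.5% of all genes tested). *CCND1*, the cyclin D1 gene that acts ahead of cyclin E, rose from 74.6 ± 2.93 to 183 ± 3.62 FPKM (1.29, adjusted p = 9.87e-08 from limma), and *CCNQ*, a partner of CDK10, from 7.55 ± 0.927 to 18.1 ± 0.290 FPKM (1.26). *CCNG2*, a cyclin known from arrested cells, fell from 13.8 ± 0.391 to 4.83 ± 0.189 FPKM (-1.497, adjusted p = 1.74e-07), and like *CCNA1* was called lower. *CCNF* was the other called gene.

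Of 20 other cyclin-dependent kinase genes, 18 were tested (*CDK3* and *CDK11A* were not), with 8 higher, 7 lower and 3 that did not pass, and a median of -0.042. The share called was 11.1%, near the 11.5% of all genes tested, so the counts do not set this list apart. *CDK6*, a partner of D-type cyclins, rose from 5.29 ± 0.414 to 12.6 ± 0.461 FPKM (1.23, adjusted p = 1.60e-06). *CDK15* fell from 1.99 ± 0.350 to 0.834 ± 0.0444 FPKM (-1.15, adjusted p = 1.63e-04). *CDK2*, at 0.87, was higher by less than *CDK6*, and the difference was not tested.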
